A study of Bos taurus with 8 samples.

Results

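Solute carriers are the membrane proteins that move small molecules across the plasma membrane and the membranes of organelles. The genes described here have a symbol made of SLC and a number. They were chosen by measured signal: a gene entered where the scanner software marked one of its probes as well above background on 4 or more of the 8 arrays. The array holds 153 probes for 149 such genes, and 100 of the 149 met the rule. Where a gene has several probes, the brightest that met the rule stands for it. The rule used the strength of the signal and not the difference between the groups. A gene could still meet it mainly through the arrays of the group where it was brighter. It follows the names, so SLC7A6OS, a gene that lies opposite SLC7A6 and is no carrier, counts among the 100.

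Bovine blood granulocytes, the leukocytes with granules that are mostly neutrophils, were taken from 4 cows at 2 times. The first sample of each cow came from day 7 of the cycle, when the cow was not pregnant and no embryo had been transferred. The second came from day 21 of a pregnancy made by embryo transfer. Neither age nor breed is given in the sources used here. Each of the 8 samples had 1 single-colour array. Every cow gave its day 7 sample before its day 21 sample, so pregnancy, the transfer, the day and the passing of time cannot be told apart. In such blood cell samples, fewer cells of a type and less RNA per cell cannot be told apart either.

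The carriers fall into families by sequence, and each family has its own kinds of cargo. Facilitative carriers let a solute run down its gradient. Coupled carriers use the gradient of sodium, protons or another solute, and exchangers trade one solute for another. The SLC25 family sits in the inner mitochondrial membrane and joins the metabolism of the cytosol to that of the matrix. Neutrophils are known for living largely on glucose taken up through glucose carriers, and for keeping metals from microbes with carriers of the phagosome membrane. By family number the 100 genes were put into 10 classes: 21 carriers of amino acids, 20 mitochondrial carriers, 11 of inorganic ions and bicarbonate, 10 of sugars and sodium-coupled solutes, and 9 each of nucleosides and nucleotide sugars, of metals, and of organic ions, vitamins and bile acids. The other classes held 5 carriers of peptides, lipids, urea and others, 3 of phosphate and of vesicular cargo, and 3 of monocarboxylates and dicarboxylates.

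Each signal was read by a probe of 60 bases. The stretches of 30 bases below, 5′ to 3′, belong to 8 of the 9 genes whose day 21 signal differed most clearly from day 7 by the unadjusted test, and show what these measurements rest on. Capitals mark a polyadenylation signal hexamer, AATAAA, which lies near the end of a transcript.
SLC7A5, bases 1 to 30: gcttagctgctttgggatggggagttttgt
SLC1A5, bases 29 to 58: gatgtttataacAATAAAactgtcagtttg
SLC12A5, bases 1 to 30: gctcccatttaatgctatatagcttttact
SLC25A5, bases 1 to 30: aataatattcacatgaccagttttctctta
SLC25A14, bases 1 to 30: gaatgcaggctcaaggaagcttgttccaag
SLC26A11, bases 1 to 30: tggtgctctgtgacccacagtttcatgcgg
SLC39A1, bases 1 to 30: gggagggctatgcatagggccatattctgt
SLC4A5, bases 1 to 30: gcatatataaaggaagcttttttccctccc
A hexamer AATAAA or ATTAAA stood on the printed strand of the probe for 24 of the 100 genes (24%), against 16.4% of the 10459 probes tested and 14.9% of all 15208 probes on the array. On the other strand the shares were 10% of the genes and 7.09% of the probes tested. The median GC content was 43.3% both for the genes' probes and for the probes tested. The longest run of bases shared by probes of different genes was 13, between SLC25A25 and SLC25A17. The transcripts themselves were not used here, so the match of a probe to a close relative of its gene was not tested.

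Among the 100 genes, 69 were well above background on all 8 arrays, 10 on 7, 6 on 6, 8 on 5 and 7 on exactly 4. The 7 that only just met the rule were SLC26A2, SLC5A3, SLC38A1, SLC43A3, SLC7A3 and SLC38A3, each seen on 1 array of day 7 and 3 of day 21, and SLC6A3, seen on 2 of each. On the other side of the rule, 5 genes were seen on 3 arrays, 1 of day 7 and 2 of day 21: SLC13A2, SLC22A6, SLC25A32, SLC39A4 and SLC5A2. More arrays of day 21 than of day 7 showed the gene for 24 of the 100, and the reverse held for 5. The number of the 100 genes seen per array was 84, 87, 100 and 73 on day 7 in cows 1 to 4, and 96, 92, 99 and 95 on day 21. The low count was that of cow 4 on day 7, whose negative control spots had an SD of 20.6 intensity units against 3.43 to 5.68 on the other arrays.

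Values are given as the normalised log2 signal, which is log2 of the processed intensity minus the 75th percentile of the array, so that a probe at that percentile has the value 0. Signals of different probes are not compared. Differences are day 21 minus day 7 on the log2 scale. Over the 100 genes, 62 were higher and 38 lower on day 21, and the median difference was 0.19. Over all 5005 named genes tested, 56.5% were higher and the median was 0.09. Of the 24 carriers seen on more arrays of day 21, 21 were higher, with a median of 0.61. Of the 5 seen on more arrays of day 7, 0 were higher. Among the 69 seen on all 8 arrays, 41 were higher with a median of 0.16. For the 4022 named genes seen on all 8 arrays, 2236 were higher and the median was 0.07. Within the cows the median of the 100 was -0.17 in cow 1, 0.51 in cow 2, 0.18 in cow 3 and 0.12 in cow 4, beside -0.08, 0.18, 0.07 and 0.08 for all named genes. Cow 1 thus ran against the other 3, and cow 2 had the highest median. The 2 samples of cow 2 were hybridised on separate slides, while those of each other cow shared a slide. Without both arrays of cow 2 the median of the 100 was 0.035, beside 0.042 for all named genes.

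In limma's unpaired test with Benjamini-Hochberg adjustment over all probes tested, 0 of the 100 genes were higher and 0 lower at an adjusted p under 0.05, and the shares over all named genes were 0% and 0%. The smallest adjusted p of a carrier was 0.345. At an unadjusted p under 0.05, 5 of the 100 were higher, beside 5.29% of all named genes, and 4 were lower, beside 3.7%. These shares lie near the background. A difference in the same direction in 4 of 4 cows was found for 21 of the 100 upward and 12 downward, and over the named genes measured in all cows the shares were 16.7% and 13%. For 1 of the 12, SLC5A6, the direction in cow 4 was set by surrogate values on both arrays. Among the 21, SLC5A3 had surrogate values on 2 arrays of day 7, and SLC7A2, SLC28A1 and SLC38A1 on 1 each. The day 7 and day 21 values did not overlap for 3 higher genes (3.62% of all named genes) and for 2 lower ones (2.28%). A difference of 2-fold or more was seen in 13 genes upward and 7 downward, against 7.27% and 5.63% of all named genes. The standard error of a single carrier's difference had a median of 0.46, beside 0.45 over all named genes.

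The source names give the same 4 animals in both groups. With cow as a block, 13 carriers were higher and 9 lower at an unadjusted p under 0.05, beside 10.3% and 7.53% of all named genes. Of the 9 genes of the unpaired test 8 were among these 22, and SLC12A5 was not. The smallest adjusted p of a carrier was then 0.125, and 0 passed. Without the day 21 array of cow 1, 15 were higher and 10 lower, beside 9.21% and 7.87%, again with 0 past the adjusted threshold. That set of 25 held all 9 genes of the unpaired test. When limma weighted each array by its quality, 4 carriers passed the adjusted threshold upward (SLC12A5, SLC1A5, SLC26A2 and SLC15A1), beside 2.88% of all named genes, and 4 downward (SLC26A11, SLC39A1, SLC10A7 and SLC35A1), beside 2.84%. The 2 arrays of cow 1 had the lowest weights, at 0.36 each. Those of cow 4 had the highest, at 2.55 on day 7 and 3.50 on day 21. In cow 1, SLC12A5, SLC1A5, SLC26A2, SLC15A1, SLC10A7 and SLC35A1 ran against cows 2 to 4. SLC26A11 and SLC39A1 ran the same way in each cow.

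The size of many differences of dim probes moved with the background correction. Normexp correction, which adds an offset of 50 intensity units, reduced the difference by a factor of over 1.5 for 25 of 54 named carriers. SLC7A1 then stood at 0.31, SLC7A2 at 0.62, SLC28A1 at 0.42, SLC2A5 at 0.45, SLC26A6 at 0.30, SLC4A4 at 0.34 and SLC15A1 at 0.43. The bright probes of SLC7A5, at 1.35, SLC1A5, at 1.22, and SLC26A11, at -1.28, moved little.

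**Figure D1:**
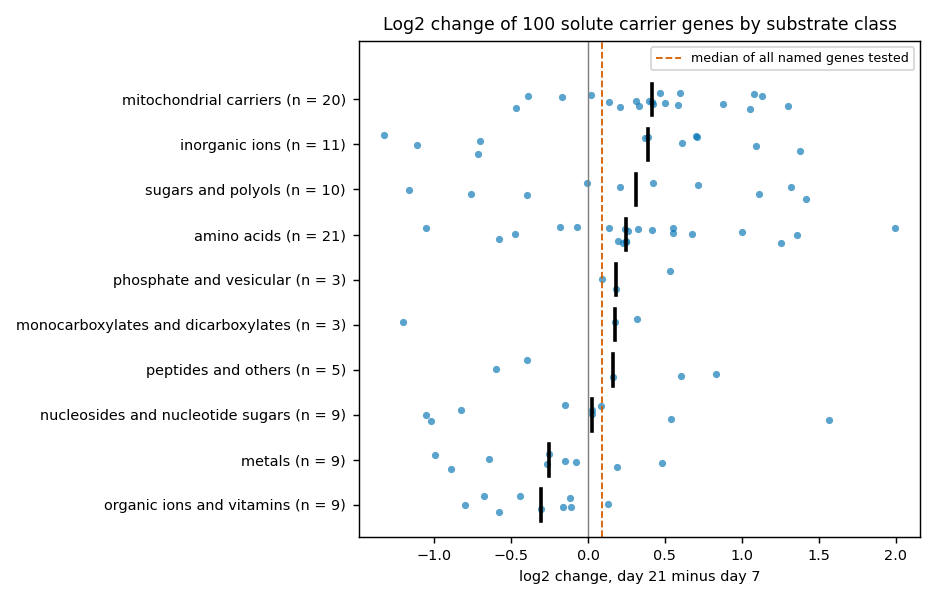
Log2 change, day 21 minus day 7, of the 100 solute carrier genes (1 point per gene), by substrate class, with the class median as a black bar and the median of all named genes tested (0.09) as a dashed line. The mitochondrial class has a median of 0.42, with 17 of 20 points above 0, and the metal and organic ion classes lie mostly below 0.

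The mitochondrial carriers were mostly higher on day 21. Of 23 SLC25 genes on the array, 20 were above background, and 17 of the 20 were higher on day 21 with a median difference of 0.42. The median was positive in each cow, at 0.30, 0.68, 0.36 and 0.36 in cows 1 to 4, so this class did not share the negative median of cow 1. The 20 differences ran from -0.47 to 1.30, and 2 of them, both upward, had an unadjusted p under 0.05. Over the 24 other ways of processing tried, between 15 and 17 of the 18 to 20 carriers that gave a value were higher, and the median lay between 0.23 and 0.57. It was the highest of the 10 class medians under 10 of the 24, as was that of the inorganic ion class under another 10, so the order of the classes was not fixed. In cow 1, 11 of the 20 were higher, against 17, 17 and 15 in cows 2 to 4. Among the 18 seen on all 8 arrays, 15 were higher with a median of 0.41.

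SLC25A5, an ADP/ATP translocase that passes ATP out of mitochondria, was at 0.75, 2.49, 2.18 and 2.41 on day 7 in cows 1 to 4 and at 2.96, 3.40, 2.91 and 3.07 on day 21. Every day 21 value lay above every day 7 value, and the day 7 value of cow 1 was the lowest by far. The group means were 1.96 ± 0.82 and 3.09 ± 0.22 (SD, n = 4), a difference of 1.13 ± 0.44 (SE) or 2.18-fold, with an unadjusted p of 0.0262 and an adjusted p of 0.502. Without the day 7 array of cow 1 the difference was 0.72. SLC25A14, a carrier of the uncoupling protein branch of the family, was at -4.39, -3.70, -4.63 and -4.03 on day 7 and at -3.30, -3.02, -3.63 and -3.30 on day 21. Its 2 groups did not overlap either, and its within-cow differences of 1.09, 0.69, 1.01 and 0.73 were close to each other. The difference was 0.88 ± 0.35 (SE), with an unadjusted p of 0.0288 and an adjusted p of 0.502 in the unpaired fit and an adjusted p of 0.173 with cow as a block. With normexp background correction it was 0.49.

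SLC25A1 exports citrate from mitochondria, which supplies carbon for lipid synthesis. It was at -1.08, -1.80, -1.43 and -1.18 on day 7 and at -0.85, -0.76, -0.79 and -0.75 on day 21, again without overlap. Its day 21 values had an SD of 0.05, and its difference of 0.58 ± 0.32 (SE) had an unadjusted p of 0.0966. SLC25A25, the ATP-Mg and phosphate carrier that calcium controls, was higher in cows 2, 3 and 4, by 1.72, 1.56 and 1.66, and lower in cow 1, by 0.62 (within-cow difference -0.62). The other ADP/ATP translocases were SLC25A6, at 0.41 ± 0.38 (SE), higher in 4 of 4 cows, and SLC25A4, at 1.30 ± 1.08. SLC25A39, which serves the glutathione supply of the matrix, stood at 0.47 ± 0.36, and its 4 day 21 values lay between 2.90 and 3.06. The carriers below 0 were SLC25A11, which exchanges oxoglutarate for malate (-0.47 ± 0.35, lower in 4 of 4 cows), SLC25A20, the carnitine and acylcarnitine carrier (-0.39), and SLC25A16 (-0.17). The smallest scatter between cows belonged to SLC25A34, with an SD of the within-cow difference of 0.10 around 0.31. The array file describes that probe as member 35 of the family, so the name is uncertain.

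**Figure D2:**
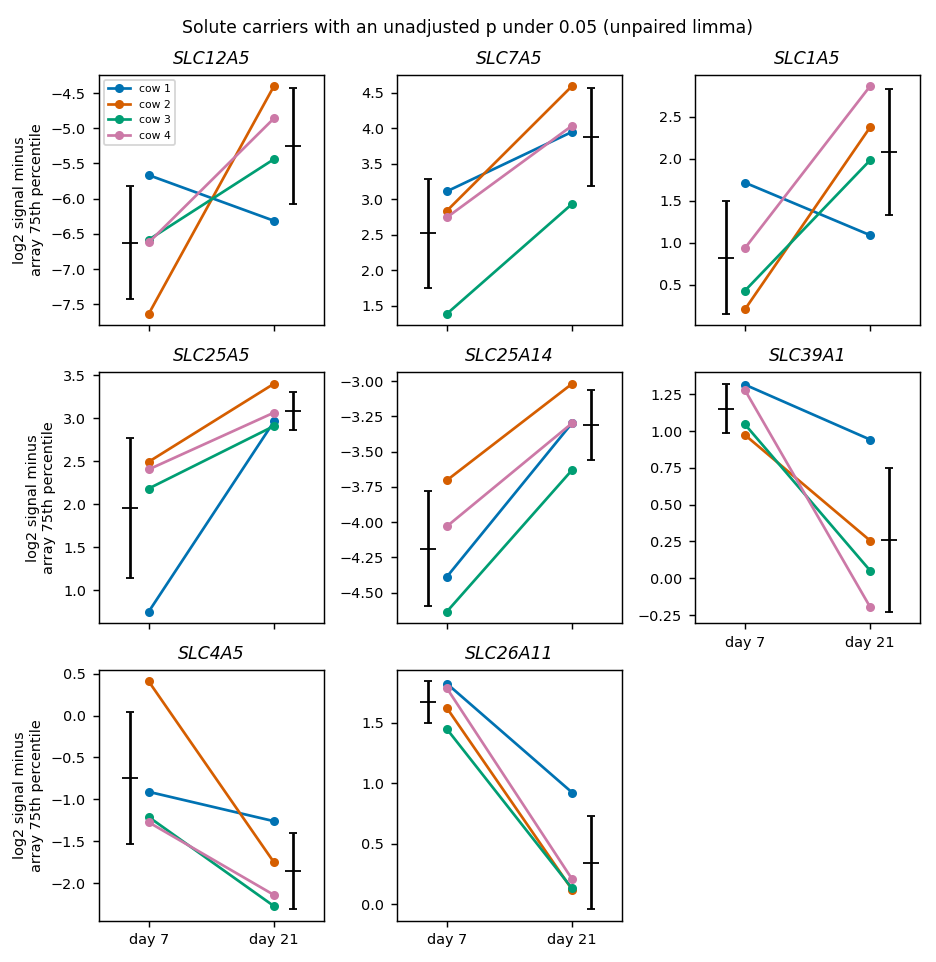
Normalised log2 signal of 8 of the 9 solute carriers with an unadjusted p under 0.05, on day 7 and day 21, with 1 line per cow and the mean ± SD of each group (n = 4) in black. The lines run the same way in the 4 cows for 6 genes, whereas cow 1 runs against the others for SLC12A5 and SLC1A5.

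Of 32 amino acid carrier genes on the array, 21 met the rule, and 16 of them were higher on day 21, with a median difference of 0.25. Without SLC7A6OS, which is no carrier, 15 of 20 were higher and the median was again 0.25. The medians of the cows were -0.20, 0.92, 0.32 and 0.31, so cow 1 again stood on the other side of 0. Without both arrays of cow 2, 12 of the 21 were higher. SLC7A5 forms the light chain of an exchanger that brings large neutral amino acids such as leucine into the cell. Its values were 3.11, 2.84, 1.39 and 2.74 on day 7 and 3.95, 4.59, 2.93 and 4.04 on day 21 in cows 1 to 4. It was higher in each cow, by 0.84, 1.76, 1.55 and 1.29, while the groups overlapped because cow 3 was low on both days. The means of 2.52 ± 0.77 and 3.88 ± 0.69 (SD, n = 4) differed by 1.36 ± 0.49 (SE), 2.56-fold, with an unadjusted p of 0.0192. The adjusted p was 0.495, and 0.125 with cow as a block.

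SLC3A2 is the heavy chain that carries SLC7A5 to the cell surface. On day 7 it was at 1.05, 0.28, 1.24 and 1.23, and on day 21 at -0.08, 1.96, 2.09 and 2.52. It was higher in cows 2 to 4, by 1.68, 0.86 and 1.30, and lower in cow 1, where the difference was -1.12. The overall difference was 0.68 ± 0.56 (SE), and 1.24 ± 0.38 without the day 21 array of cow 1. SLC1A5, an exchanger of glutamine and other neutral amino acids, had the same split. Its day 7 values were 1.71, 0.21, 0.43 and 0.94 and its day 21 values 1.09, 2.38, 1.98 and 2.86, with cow 1 alone lower on day 21. The difference was 1.26 ± 0.48 (SE), 2.39-fold, with an unadjusted p of 0.0254 and an adjusted p of 0.502. SLC7A1, which carries arginine and lysine, also had a negative value in cow 1 (-0.20) beside 1.66, 1.05 and 1.48 in the others. The glycine carrier SLC6A9 was higher in 4 of 4 cows, at 0.55 ± 0.41 (SE).

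SLC7A11, the cystine and glutamate exchanger that feeds glutathione synthesis, was at -2.11, -1.18, -1.84 and -1.34 on day 7. On day 21 it was at -0.38, -1.58 and -0.03 in cows 2 to 4, but at -8.70 in cow 1, where the scanner software had put a surrogate value in place of a signal that could not be told from background. The difference of -1.05 ± 1.58 (SE) therefore rests on that 1 spot. Without that array it was 0.96, with a positive difference in each of cows 2 to 4. SLC3A1, the heavy chain of another amino acid exchanger, went the other way, at 0.54 in cow 1 and -0.42, -1.32 and -1.11 in cows 2 to 4.

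The pattern of cow 1 against the other 3 reached across classes. A negative difference in cow 1 beside positive ones in cows 2, 3 and 4 was found for 22 of the 100 carriers, and for 17.3% of the 4924 named genes measured in all cows. The reverse was found for 8 carriers and 10.8% of the named genes. The 22 included SLC2A1 and SLC2A3, the glucose carriers, SLC11A1, SLC15A1, SLC38A2, SLC12A5 and SLC26A2 beside those above, and 7 of the 20 mitochondrial carriers. On the day 21 array of cow 1 the median of 6 neutrophil markers was -2.05, against 0.06 to 0.89 on the other day 21 arrays and -0.63 to 0.25 on the day 7 arrays. The part of these markers in the carriers' pattern was not tested.

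**Figure D3:**
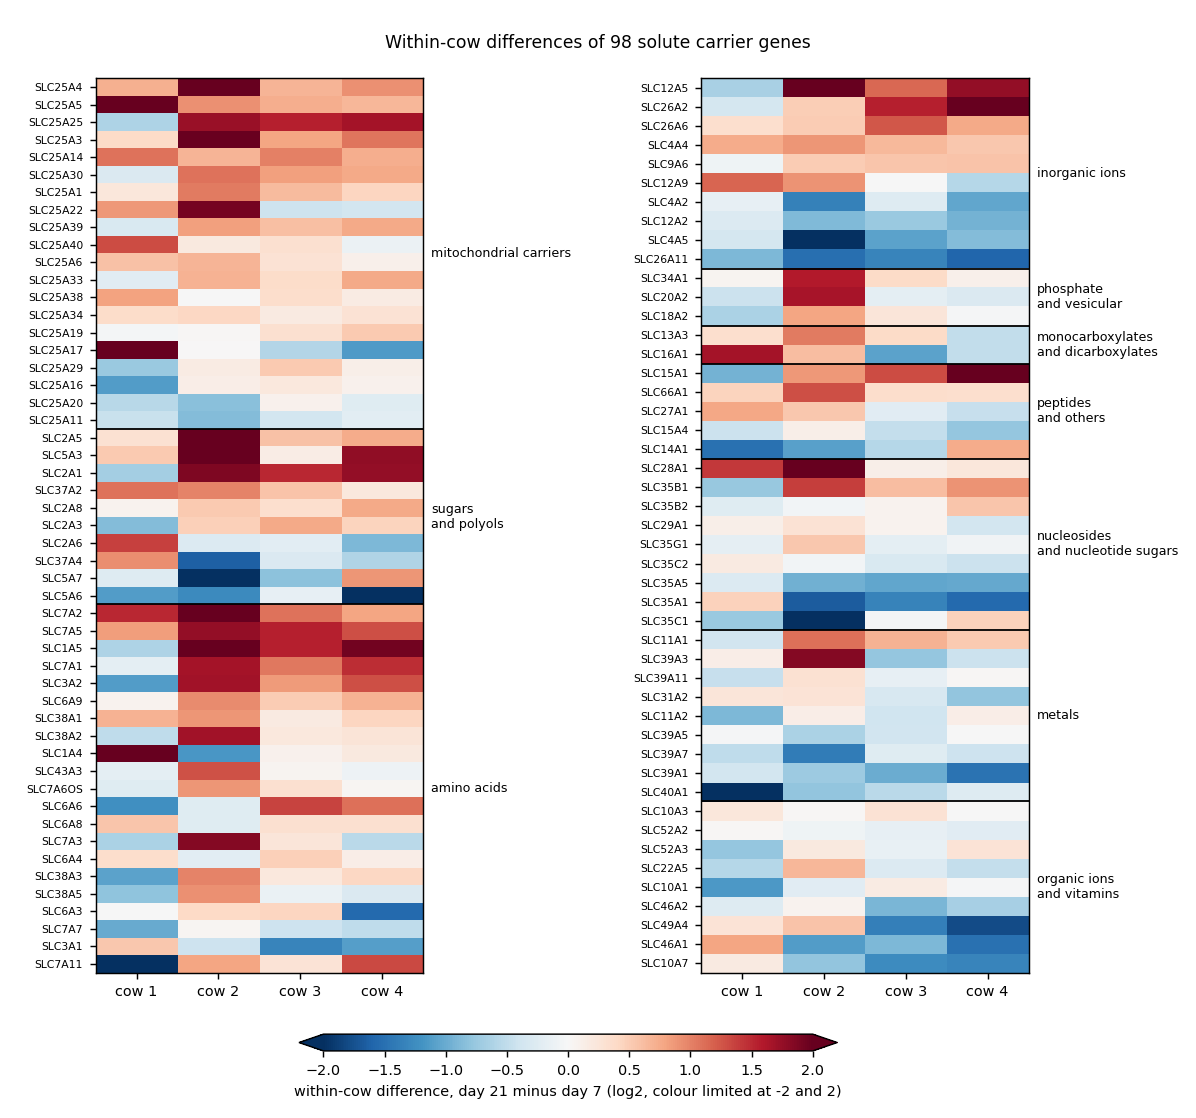
Within-cow difference, day 21 minus day 7, of 98 of the 100 solute carriers (rows, ordered by log2 change within each class) in 4 cows (columns), with red for higher and blue for lower on day 21 and the colour limited at -2 and 2. Cow 1 is often pale or blue where cows 2 to 4 are red, as for SLC1A5, SLC3A2 and SLC2A1, while SLC25A5, SLC25A14 and SLC7A5 are red in each cow.

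Sugar carriers and sodium-coupled carriers of the same class numbered 10 of 17 on the array. Of the 10, 6 were higher on day 21, with a median of 0.31 and 0 of them at an unadjusted p under 0.05. That median was 0.092 without the day 7 array of cow 3 and 0.62 without its day 21 array. SLC2A1, the glucose carrier GLUT1, was at 2.59, 1.62, 0.36 and 1.40 on day 7 and at 1.90, 3.48, 1.87 and 3.16 on day 21. It was higher by 1.86, 1.50 and 1.76 in cows 2 to 4 and had a difference of -0.69 in cow 1, which gave 1.11 ± 0.55 (SE) overall with an unadjusted p of 0.0723. SLC2A3, the high-affinity glucose carrier GLUT3, differed by 0.21 ± 0.65, and both arrays of cow 3 were low for it, at -3.22 and -2.45. SLC37A2, a sugar phosphate exchanger of the endoplasmic reticulum, was higher in 4 of 4 cows (1.09, 0.99, 0.57 and 0.21), as was SLC2A8 (0.07, 0.52, 0.34 and 0.76). SLC5A6, which takes up biotin and pantothenate, differed by -1.16 ± 0.56 (SE), but its signal was well above background on only 3 arrays of day 7 and 2 of day 21. In cow 4 both values were surrogates, so that cow gives no measured direction, and the difference was -0.027 with normexp background correction.

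The 3 largest upward differences among the 100, of SLC7A2, SLC28A1 and SLC2A5, belonged to probes well above background on 1 or 2 arrays of day 7. Each of the 3 was lower on the 3 arrays of slide 1 than on the other 5 arrays. SLC7A2, a second arginine carrier, was at -7.66 and -6.16 on day 7 and day 21 in cow 1 and at -7.84 on day 7 in cow 2; the first of these was a surrogate for a signal near background. Those 3 arrays shared slide 1. On the other 5 arrays it lay between -4.61 and -2.09. Its difference was 4.61 in cow 2, the cow whose arrays lay on separate slides, and 1.50, 1.08 and 0.78 in cows 1, 3 and 4. The mean difference of 1.99 ± 1.13 (SE) became 1.20 ± 0.30 with slide as a fixed block. Slide 2 held only the day 21 array of cow 2, so that array did not count towards this estimate. The block thus cannot part the slide from the cow, and the cause was not tested. SLC28A1, a sodium-coupled nucleoside carrier, had 4.51 in cow 2, 0.11 and 0.23 in cows 3 and 4, and 1.41 in cow 1, where the day 7 value was a surrogate. Its difference went from 1.57 to 0.56 with the slide block. The fructose carrier SLC2A5 (4.03 in cow 2, 0.31 to 0.75 elsewhere) went from 1.42 to 0.60. SLC5A3, the inositol carrier, went from 1.32 to 0.89, SLC25A4 from 1.30 to 0.86 and SLC25A3, the mitochondrial phosphate carrier, from 1.05 to 0.50. For SLC5A3 the day 7 values of cows 1 and 4 were surrogates, and with normexp background correction its difference was 0.14.

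In all, 13 of the 100 carriers were lower on the 3 arrays of slide 1 than on each of the other 5 arrays, and 6 were higher, against 10.7% and 9.59% of the 5005 named genes. Of these, SLC25A3 was at -3.66, -3.28 and -2.59 on slide 1 and between -0.62 and 2.31 elsewhere. In cows 1, 3 and 4, whose 2 arrays shared a slide, SLC25A3 was higher on day 21 by 0.38, 0.78 and 1.07. Slide 1 holds both arrays of cow 1 and 1 array of cow 2, so the slide and the cow are partly the same thing here.

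**Figure D4:**
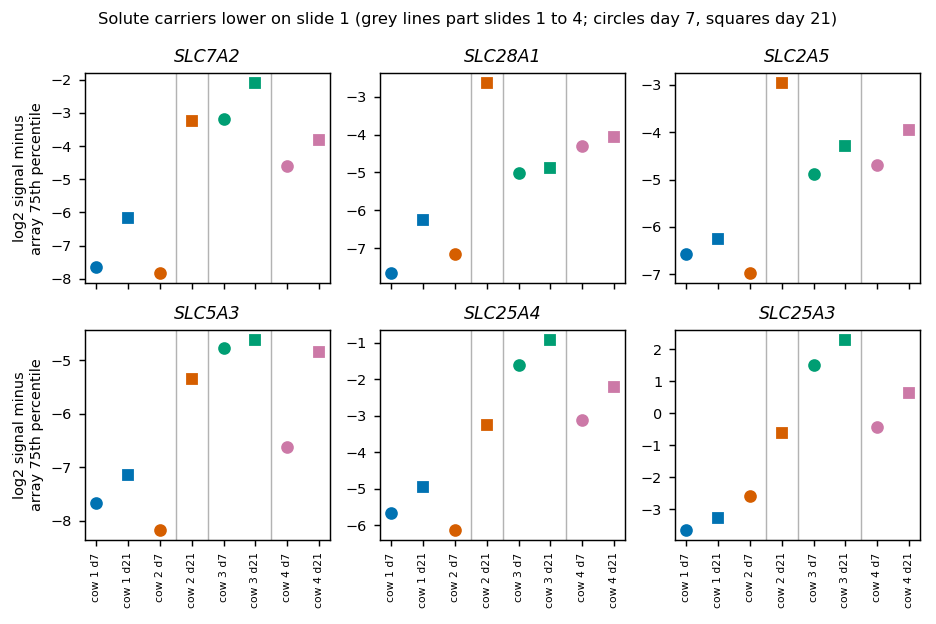
Normalised log2 signal of 6 solute carriers on each of the 8 arrays, ordered by slide, with grey lines between slides 1 to 4, colours for cows, circles for day 7 and squares for day 21. The 6 genes are among the 13 carriers that were lower on the 3 arrays of slide 1 than on the other 5, so that position was set by their choice. Cow 2 is the only cow with its day 7 and day 21 arrays on different slides.

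The metal carriers were mostly on the other side. Of 13 on the array, 9 met the rule, and 7 of the 9 were lower on day 21 with a median difference of -0.26; 1 had an unadjusted p under 0.05. The cow medians were -0.38, 0.13, -0.39 and -0.26, and over the 24 alternatives between 1 and 3 of them were higher. SLC39A1, a zinc importer of the plasma membrane, was at 1.32, 0.97, 1.05 and 1.28 on day 7 and at 0.94, 0.25, 0.05 and -0.20 on day 21. The groups did not overlap, and the within-cow differences ran from -0.37 in cow 1 to -1.48 in cow 4. The mean difference was -0.89 ± 0.35 (SE), 1.85-fold lower, with an unadjusted p of 0.0299 and an adjusted p of 0.502. SLC40A1, the iron exporter ferroportin, was at 0.14, 0.47, -0.98 and 0.38 on day 7 and at -2.26, -0.32, -1.51 and 0.12 on day 21. It was lower in 4 of 4 cows, by far the most in cow 1 (-2.39), and its difference of -0.99 ± 0.57 (SE) was -0.57 without the day 21 array of that cow. SLC39A7, which releases zinc from the endoplasmic reticulum, was lower in each cow too, at -0.64 ± 0.45.

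SLC11A1, the metal carrier of the phagosome membrane known from resistance to intracellular bacteria, was one of the 2 metal carriers that were higher. Its day 7 values were 1.74, 1.00, 1.84 and 1.63 and its day 21 values 1.36, 2.09, 2.54 and 2.15. It was higher in cows 2 to 4, by 0.52 or more, and in cow 1 the difference was -0.38. The overall difference was 0.48 ± 0.38 (SE). Of 9 tested genes of iron and metal handling that are no carriers, 7 were higher and 2 lower, with a median of 0.23 and 0 at an unadjusted p under 0.05. HMOX1, the haem oxygenase, stood at 0.47 ± 0.36 (SE) and FTL, the ferritin light chain, at 0.30 ± 0.32, both higher in 4 of 4 cows.

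Among carriers of inorganic ions and bicarbonate, 11 of 19 met the rule, 7 were higher and 4 lower, and the median was 0.39. The sign of that median depended on the dim genes: of the 6 seen on all 8 arrays, 2 were higher and the median was -0.71. SLC26A11, a sulphate and chloride carrier, had the smallest p of the 100. On day 7 it was at 1.82, 1.62, 1.45 and 1.78 in cows 1 to 4, and on day 21 at 0.92, 0.12, 0.13 and 0.21. The groups did not overlap, and cow 1 kept the highest value on day 21. The means of 1.67 ± 0.17 and 0.34 ± 0.39 (SD, n = 4) differed by -1.32 ± 0.34 (SE), 2.50-fold lower, with an unadjusted p of 0.00256 and an adjusted p of 0.345. With cow as a block the adjusted p was 0.125. Over the alternatives its difference lay between -1.52 and -1.19, and it passed the adjusted threshold under array weights alone, at an adjusted p of 0.0170.

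SLC4A5, a sodium bicarbonate cotransporter, was at -0.91, 0.41, -1.21 and -1.27 on day 7 and at -1.26, -1.75, -2.28 and -2.14 on day 21, lower in 4 of 4 cows. Its difference was -1.11 ± 0.45 (SE), with an unadjusted p of 0.0333 and an adjusted p of 0.505. Without the day 7 array of cow 2 the difference was -0.73. A second probe named SLC4A5 gave -0.23 ± 0.40, with cow 1 at its lowest on day 21. SLC12A2, the sodium, potassium and chloride cotransporter that restores cell volume, was lower in 4 of 4 cows at -0.71 ± 0.52, and its second probe gave -1.48 ± 0.92, most of it from cow 2, where that probe went from -0.79 to -5.68. The anion exchanger SLC4A2 was lower in 4 of 4 cows as well, at -0.70 ± 0.59. In the other direction, SLC12A5, a potassium and chloride cotransporter best known from neurons, was at -5.67, -7.64, -6.58 and -6.62 on day 7 and at -6.31, -4.40, -5.44 and -4.86 on day 21. It was well above background on 1 array of day 7 and on 4 of day 21. Its difference of 1.38 ± 0.53 (SE) had an unadjusted p of 0.0253 and an adjusted p of 0.502 in the unpaired fit, and an unadjusted p of 0.0586 with cow as a block. It was 0.25 with normexp background correction and 0.75 without both arrays of cow 2. The day 7 value of cow 4 was a surrogate, so the size of this difference depends on the level set for signals near background. The anion exchanger SLC26A6 and the sodium bicarbonate cotransporter SLC4A4 were higher in 4 of 4 cows, at 0.71 ± 0.35 and 0.70 ± 0.59.

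Carriers of organic ions, vitamins and bile acids were mostly lower on day 21. Of 16 on the array, 9 met the rule, 8 of the 9 were lower, and the median was -0.31. Over the 24 alternatives it ran from -0.44 to -0.13 and was the lowest of the class medians under 15, while that of the metal class was the lowest under 6. The cow medians were 0.02, 0.02, -0.28 and -0.47, so the median was below 0 in cows 3 and 4 and not in cows 1 and 2, and 0 of the 9 had an unadjusted p under 0.05. SLC10A7 was at -0.18, 0.05, -0.16 and -0.13 on day 7 and at 0.00, -0.73, -1.42 and -1.46 on day 21, 0.18 higher on day 21 in cow 1 and lower in the others, with a difference of -0.80 ± 0.40 (SE). The probe that the gene table names SLC46A1, a folate carrier, had the same shape, at 0.79 in cow 1 and -1.12, -0.89 and -1.49 in cows 2 to 4. The array file describes that probe as SARM1, so the name is uncertain. SLC52A2, the riboflavin carrier, differed by -0.11 ± 0.36.

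Among the 9 carriers of nucleosides and nucleotide sugars, 5 were higher and 4 lower, with a median of 0.03. SLC35A1 brings CMP-sialic acid into the Golgi for the sialylation of glycoproteins. It was at 0.02, -0.08, -0.57 and -0.50 on day 7 and at 0.48, -1.73, -1.90 and -2.06 on day 21, lower in cows 2 to 4, with differences of -1.66, -1.33 and -1.55, and higher in cow 1. The SD of its day 7 values was 0.30. The difference was -1.02 ± 0.55 (SE), and -1.61 ± 0.34 without the day 21 array of cow 1, where its adjusted p was 0.0736. SLC35A5 was lower in 4 of 4 cows, at -0.82 ± 0.55. SLC35C1, the GDP-fucose carrier whose loss leaves leukocytes without selectin ligands, differed by -1.05 ± 0.93 (SE), and that value rests on cow 2 (-3.88), where the day 21 spot had a surrogate value. The differences in the other cows were -0.74, -0.04 and 0.46.

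Among carriers of monocarboxylates and dicarboxylates, SLC13A3, a dicarboxylate carrier, differed by 0.32 ± 0.52 (SE), and SLC16A1, the lactate carrier MCT1, by 0.18 ± 0.47. In the class of peptides and others, the peptide carrier SLC15A1 was at -0.94 in cow 1 and 0.87, 1.30 and 2.08 in the others, SLC66A1 of the lysosome was higher in 4 of 4 cows at 0.60 ± 0.48, and SLC15A4, the lysosomal histidine and peptide carrier, was at -0.39 ± 0.41. The phosphate carriers SLC34A1 and SLC20A2 differed by 0.53 ± 0.41 and 0.18 ± 0.80, and the vesicular monoamine carrier SLC18A2 by 0.09 ± 0.41.

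Only 3 of the 100 genes had more than 1 probe that met the rule, and 1 of them gives a measure of error on the array. The 2 probes of SLC5A7, the choline carrier, have the same 60 bases. They gave differences of -0.76 ± 0.96 and 0.15 ± 1.24 (SE). On the day 21 array of cow 2 they lay far apart, at -7.69 (a surrogate) and -5.38, and on the day 7 array of cow 1 close together, at -3.45 and -3.61. Over 64 pairs of tested probes with identical sequences, the difference between day 21 and day 7 differed by a median of 0.19 within a pair and by 0.69 at the 90th percentile. 

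Partners of the carriers were read from lists. Of 5 tested chaperones and sodium pump subunits, 4 were higher and 1 lower with a median of 0.28, among them BSG, which escorts monocarboxylate carriers, at 0.28 ± 0.38 (SE), and the pump subunit ATP1B1 at 0.49 ± 0.74. In amino acid sensing and stress, 4 of 8 tested genes were higher and the median was 0.07. RHEB, the small GTPase that switches on mTORC1, was at 1.22, 1.35, 0.91 and 1.49 on day 7 and at 1.74, 3.02, 1.89 and 2.62 on day 21, with no overlap. Its difference of 1.07 ± 0.39 had an unadjusted p of 0.0184 and an adjusted p of 0.494. DDIT3, a stress transcription factor, differed by 0.67 ± 0.41. Of 9 ABC transporters, which pump by hydrolysing ATP, 6 were higher, with a median of 0.08. ABCC1, an exporter of glutathione conjugates and leukotrienes, was higher in 4 of 4 cows at 1.03 ± 0.44, with an unadjusted p of 0.0415 and an adjusted p of 0.514. ABCG4 was higher in 4 of 4 cows too, at 1.16 ± 0.54, with an unadjusted p of 0.0543 and an adjusted p of 0.544. Its probe was dim, with values between -7.56 and -4.15. With normexp background correction ABCG4 stood at 0.28 and ABCC1 at 1.00. The 2 tested organic anion carriers of the SLCO family, SLCO4C1 and SLCO3A1, differed by -0.44 ± 0.63 and -0.19 ± 0.37.

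Markers of the cell types that such a preparation can hold were read on the same scale. The neutrophil marker S100A8 lay between 5.27 and 5.88, while CSF3R, CXCR2, MMP8 and S100A9 were not tested. Genes used as markers of other leukocytes gave signal as well: FCN1 of monocytes lay between 5.59 and 6.69, CD247 of T cells between 2.94 and 4.48, and CD79A of B cells between 1.55 and 2.54. Other markers of the same lists had other ranges. The neutrophil marker CAMP lay between -8.39 and -5.36, C1QA of macrophages between -8.22 and -4.84, and CD6 of T cells between -4.55 and -3.09. Of 6 neutrophil markers 1 was higher on day 21 and 5 lower, with a median of -0.35. The 7 monocyte and macrophage markers were all higher, with a median of 0.75 that was positive in 4 of 4 cows, and 2 of the 7, CD14 (1.60 ± 0.45) and VCAN (0.86 ± 0.34), had an unadjusted p under 0.05. Their array medians were -0.28 to 0.20 on day 7 and 0.33 to 1.37 on day 21. T cell markers had a median of -0.45 (3 of 9 higher), B cell markers of 0.37 (3 of 4 higher), cytotoxic cell markers of 0.30 (6 of 7 higher) and platelet markers of 0.10 (2 of 3 higher). The third platelet marker, P2RY12, was lower in 4 of 4 cows, at -2.45 ± 0.45 (SE), with an unadjusted p of 0.000245 and an adjusted p of 0.279. Of the red cell markers 2 of 3 were higher, with a median of 0.23, and SLC4A1, the anion exchanger of red cells, was on 0 arrays well above background. Of 2 tested markers of eosinophils, basophils and mast cells 1 was higher and 1 lower. HDC differed by 1.07 ± 0.47 (SE), with an unadjusted p of 0.0430 and an adjusted p of 0.514, and CCR3 by -0.63 ± 0.91. The HDC probe was dim, with values between -7.66 and -5.20. Its day 7 value in cow 1, -7.66, equalled the surrogate value of SLC7A2 on that array. The within-cow differences of HDC were 2.46 in cow 1 and 0.41, 0.96 and 0.46 in cows 2, 3 and 4. The part of these markers in the differences of the carriers was not tested.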

How the data were processed

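RNA of bovine granulocytes from 4 cows, labelled with Cy3, was hybridised to 8 arrays, 1 per sample. Per the file headers, the authors deposited single-colour spot intensity read out by Feature Extraction 9.5 (Agilent), which subtracts background and sets surrogate values for spots near it. The authors' deposited series table holds log2 values, which matched the processed signal on a log2 scale less an array constant to within 0.0036; it served as an alternative.

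Values were log2 of the processed intensity minus the array's 75th percentile, without outlier spots. The 10459 probes well above background on at least 4 arrays were fitted with limma 3.58.1 (lmFit, eBayes, no block) in R 4.3.3, adjusted by Benjamini-Hochberg over all of them, and the fit was tested on simulated data. Errors are from this fit unless another is named.

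RefSeq's gene table for ARS-UCD2.0 turned the accession (2496 probes) or the gene identifier (1984) into a symbol. For 1588 probes it came from the gene name, and for 1021 from parentheses in the description or the systematic name of the array file. The remaining 8119 had none. The descriptions of the probes of SLC12A5, SLC4A5, SLC7A2 and SLC7A11 read unknown, so these names are less certain. The same holds for SLC4A4, SLC15A4, SLC20A2 and SLC38A1, and for the second probe of SLC12A2. It also holds for some carriers that enter the counts and medians alone. Another probe of SLC4A4, named by its accession, was well above background on only 3 arrays and was not tested. No coordinates are printed, since the sources used here do not give a build. Probe sequences are those of the deposited tables.

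Cow numbers pair the samples because the source names give the same animals. Deviations from the group means correlated at 0.17 to 0.75 within a cow and at -0.47 to 0.30 between cows. The lowest value within a cow, 0.17, was that of cow 2, whose arrays lay on separate slides. Its day 7 array gave the 0.30, with the day 21 array of cow 1 on the same slide. In cows 1, 3 and 4 both arrays shared a slide, so these correlations cannot part the cow from the slide.

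The members, classes, marker and partner lists were chosen with earlier results of these data known. Genes were named by rule: the 12 smallest p in each direction, the 2 smallest p per class or partner list, carriers known from leukocytes, the 3 largest and 3 smallest SDs of the within-cow difference, and non-members on 3 arrays. Others, such as SLC7A2, SLC25A3, SLC25A4 and SLC5A7, were named after their values were seen. Values of a few single genes are not reported here, though they stay in the counts and medians. Alternatives changed background correction, scaling, filters, probe choice, blocks, weights, and arrays or cows left out.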

Additional observations from a re-analysis of the deposited data

Results flagged for a closer look

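In 6 of the 124 groups of 4 arrays examined for the named genes, 1 array lay far from the other 3, by Dixon's criterion on its gap to the nearest. Chance flags about 1 group in 20. SLC26A11 was at 0.92 on day 21 in cow 1, where the other cows lay between 0.12 and 0.21. SLC35A1 was at 0.48 on the same array, with the others between -2.06 and -1.73. SLC25A39 was at 3.35 on day 7 in cow 1, against 2.14 to 2.30. SLC2A3 was at -3.22 on day 7 in cow 3, against -1.14 to -0.76. Day 7 of cow 2 held both SLC20A2, at -4.68 against -1.46 to -0.81, and HMOX1, at 1.87 against 2.83 to 2.95. The cause was not tested in any of these.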

How the results depend on the processing

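Counts of carriers at an adjusted p under 0.05 were 0 in both directions under 23 of 24 alternatives; array weights gave 4 higher and 4 lower. At an unadjusted p under 0.05, against 5 higher and 4 lower, there were 18 and 11 with array weights, 13 and 9 with cow as a replicate block and 12 and 8 with slide as a random block. Slide as a fixed block gave 8 lower and 5 higher. Leaving out arrays or cows gave 0 to 15 higher (0 without cow 4 or the day 21 array of cow 2, 15 without the day 21 array of cow 1) and 1 to 10 lower. The median stayed positive, between 0.04 and 0.29. That of all named genes was positive under each alternative too, between 0.03 and 0.12. Medians of the classes, added after the data were seen, are given in the text; that of the inorganic ion class ran from -0.71 to 0.61. The block ended the unadjusted call of SLC12A5 and of no other of the 9 genes.

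Of 64 named genes, 53 kept their direction under each alternative that gave a value and 11 did not. With quantile normalization the log2 change of SLC20A2 was -0.00603. The mean of all probes put BSG at -0.29. With spots near background missing, SLC25A4 was at -0.47, SLC5A7 at 0.53 and SLC7A11 at 0.96. The fixed slide block gave SLC35C1 0.024, SLC5A7 0.19, SLC2A3 -0.0088, SLC52A2 0.0031 and SLC18A2 -0.066, and the random one SLC18A2 -0.0086. Array weights gave SLC7A11 0.51. Leaving out arrays or cows turned SLC52A2 (-0.32 to 0.055), SLC7A11 (-1.93 to 0.96), SLCO4C1 (-0.85 to 0.15), SLC20A2 (-0.70 to 0.59), SLC18A2 (-0.15 to 0.33), SLC2A3 (-0.37 to 0.59) and ATP1B1 (-0.056 to 0.999). The cause was not tested. Precision is limited by 4 arrays a group and by signals near background.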
